A study of Mus musculus with 6 samples.

Results

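The genes described here were the TREM receptors and the adaptors through which they signal, namely *Trem1*, *Trem2*, *Trem3*, *Treml2*, *Treml4*, *Tyrobp* and *Hcst*. They were found by symbol in a table of read counts and made up 7 of its 19309 genes. The family was chosen by its measured values, as results of the same comparison of sEH-/- with wild-type macrophages were known when the genes were put together, so the difference between the genotypes in these 7 genes is given as a description. Where a member is said to be called or not, this is its place in a fit over all genes and not evidence from an independent test. Each library came from the macrophages that 1 mouse's bone marrow gave in culture, and there were 3 such libraries from sEH-/- and 3 from wild-type animals. The soluble epoxide hydrolase (sEH), encoded by *Ephx2*, converts fatty acid epoxides to diols, and the line (Ephx2tm1.1Arte x Gt(ROSA)26Sortm16(Cre)Arte) lacks it in all tissues rather than in macrophages only, so that an effect in the differentiated macrophage cannot be told apart from one in its bone marrow precursors. Mice were age- and strain-matched littermates, with C57BL/6N as the strain given, monocytes were taken at 8 to 10 weeks of age, and most experiments of the study used cells from females.

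All 6 cultures were treated in the same way, and untreated or M1-polarized cells were not among the libraries. Monocytes spent 7 days in medium to which M-CSF and GM-CSF had been added, either one at 15 ng/mL. M1 polarization was induced by LPS at 10 ng/mL together with IFN-γ at 1 ng/mL, and TGF-β1 at 10 ng/mL was then used to repolarize the cells to the pro-resolving M2c type. The series description gives 24 h for the M1 step and a further 48 h with TGF-β1, whereas the methods give 12 h and either 24 h or 48 h.

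TREM proteins are cell surface receptors of the immunoglobulin superfamily on myeloid cells. TREM1, TREM2 and TREM3 have short cytoplasmic tails and signal through DAP12, the product of *Tyrobp*, whose ITAM is phosphorylated by Src family kinases and then binds Syk. DAP10, the product of *Hcst*, carries a different motif that recruits phosphatidylinositol 3-kinase and pairs with NKG2D and with some DAP12-associated receptors. TREM1 amplifies cytokine output downstream of Toll-like receptors in neutrophils and monocytes, whereas TREM2 binds lipids and lipoproteins and sustains survival, phagocytosis and lipid handling in macrophages, microglia and osteoclasts.

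Library totals lay between 4400197 and 6096440 counts, and sEH-/- replicate 1 and wild-type replicate 2 were the deepest of their genotype. *Ephx2* counts were 4, 2 and 1 without and 26, 49 and 57 with the intact gene. All 8 macrophage markers were detected, with *Adgre1*, which encodes F4/80, at 2057 and *Mertk* at 1532 counts on average. Over the 13785 genes tested, 2.61% were called at an adjusted p below 0.05 from edgeR's quasi-likelihood test with Benjamini-Hochberg adjustment and a difference of more than 1.5-fold in either direction. Calls of genes higher in sEH-/- cells made up 1.51% and of lower genes 1.1% of those tested. P-values measure the spread between these 6 libraries only, and in bulk RNA fewer cells that express a gene and less RNA per cell cannot be told apart. CPM expresses a count relative to the TMM-normalized total of its library, and a log2 fold change above 0 means a higher level in sEH-/- cells (SE, standard error).

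*Trem1* and *Trem2* lie in 1 gene cluster and share the adaptor DAP12, but among the 5 receptor genes they had the highest and the lowest log2 fold change, and the 250 bases before their RefSeq start sites are therefore shown together. The sequences are from GRCm38.p6, chr17:48232489-48232738 for *Trem1* and chr17:48346151-48346400 for *Trem2*, both on the plus strand and written 5′ to 3′, with matches to 3 macrophage factor motifs in capitals.

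Trem1: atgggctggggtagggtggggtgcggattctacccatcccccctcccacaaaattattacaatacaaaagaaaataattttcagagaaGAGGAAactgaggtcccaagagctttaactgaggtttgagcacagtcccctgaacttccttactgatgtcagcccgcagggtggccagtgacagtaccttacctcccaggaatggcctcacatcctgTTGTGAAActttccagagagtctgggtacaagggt

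Trem2: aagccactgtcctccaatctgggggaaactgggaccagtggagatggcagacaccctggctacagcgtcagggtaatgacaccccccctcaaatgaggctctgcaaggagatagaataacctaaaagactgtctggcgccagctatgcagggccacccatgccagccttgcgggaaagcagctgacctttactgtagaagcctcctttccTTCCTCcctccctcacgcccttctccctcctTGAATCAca

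The letters searched, on both strands, were GAGGAA for PU.1, the factor that sets up myeloid gene expression, TGANTCA for AP-1 and TTNNGNAA for C/EBP, together with the NF-κB consensus. *Trem1* held a PU.1 match that starts 162 bases before the start site and a C/EBP match 35 bases before it. *Trem2* held a PU.1 match on the opposite strand 40 bases before the start site and an AP-1 match 9 bases before it, which reads as AP-1 on either strand. No motifs overlapped, and no NF-κB match was present in these windows. Among 32851 promoter windows of the same length, 23.3% held the PU.1 letters, 6.75% those of AP-1, 36.8% those of C/EBP and 7.25% the NF-κB consensus. *Treml4* held 2 PU.1 matches and a C/EBP match, and *Hcst* held 2 C/EBP matches. A match is a stretch of letters, and binding was not measured.

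*Trem1* (ENSMUSG00000042265, a protein-coding gene on the plus strand of mm10 chromosome 17, 48232768 to 48246924) was the member that differed most between the genotypes. The sEH-/- libraries held 264, 269 and 58 *Trem1* counts, or 45.1, 54.2 and 13.4 CPM. The wild-type libraries held 20, 12 and 23 counts, or 4.39, 1.94 and 4.12 CPM. Every sEH-/- library was above every wild-type library, but the third sEH-/- library was much closer to the wild-type than the other 2. Group means (± SD, n = 3 mice each) were 37.6 ± 21.4 CPM without the sEH and 3.48 ± 1.34 CPM with it, a ratio of 10.8. The log2 fold change was 3.47 (SE 0.50), which placed *Trem1* at rank 6 from the top of the 13785 tested genes. Without wild-type replicate 2 the log2 fold change was 3.15 and without wild-type replicate 3 it was 3.64, and in neither fit was *Trem1* called, while 25 and 6 genes were called in all. The range with each library left out was 3.14 to 3.87.

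*Trem3* (plus strand, chromosome 17, 48247777 to 48258841) begins 852 bases after the end of *Trem1* and encodes a further DAP12-coupled receptor. It was close to the limit of detection, with 12, 19 and 2 counts in the sEH-/- and 1, 2 and 3 in the wild-type libraries. These are 2.05, 3.83 and 0.46 CPM against 0.22, 0.32 and 0.54 CPM, with means of 2.11 ± 1.68 and 0.36 ± 0.16 CPM (SD, n = 3 each). As with *Trem1*, the first and second sEH-/- libraries were high, but the third lay within the wild-type range, so that the genotypes overlapped. The summed counts of 33 and 6, scaled for library size, gave a ratio of 5.93 (exact 95% interval 2.45 to 17.3, for counting error only). This interval leaves out the spread between mice, and *Trem3* passed the filter on low counts through its sEH-/- libraries. *Trem3* was not called, at a log2 fold change of 2.48 (SE 0.73). It was called, at 2.91, when sEH-/- replicate 3 was left out.

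*Treml4* (plus strand, chromosome 17, 48264295 to 48275360) encodes a receptor that binds late apoptotic and necrotic cells and augments signals of endosomal Toll-like receptors. It was also sparse, with 9, 21 and 16 sEH-/- counts against 6, 9 and 5 in the wild-type. On the CPM scale these were 1.54, 4.23 and 3.70 against 1.32, 1.46 and 0.89. The groups did not overlap after scaling, but the lowest sEH-/- library and the highest wild-type library each held 9 counts. Here the first sEH-/- library was the lowest, unlike in *Trem1*. *Treml4* was not called, with 1.32 (SE 0.45) on the log2 scale, but it was called at 1.68 without sEH-/- replicate 1.

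*Treml2* (plus strand, chromosome 17, 48299498 to 48312533) encodes a receptor that, unlike TREM1 to TREM3, is not known to couple to DAP12. The sEH-/- libraries held 645, 478 and 345 counts (110, 96.3 and 79.9 CPM) and the wild-type libraries 384, 420 and 429 (84.3, 68.0 and 76.8 CPM). The first and second sEH-/- libraries lay above all wild-type libraries, and the third lay among them. The log2 fold change was 0.33 (SE 0.12), with means of 95.4 ± 15.2 and 76.3 ± 8.13 CPM (SD, n = 3 each), and *Treml2* was not called.

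*Trem2* (ENSMUSG00000023992, plus strand, chromosome 17, 48346401 to 48354147) was the most abundant member by counts. The sEH-/- libraries held 1181, 1209 and 1080 counts (202, 244 and 250 CPM) and the wild-type libraries 1042, 1191 and 1100 (229, 193 and 197 CPM). The genotypes overlapped both in counts and in CPM. The means were 232 ± 26.2 and 206 ± 19.6 CPM (SD, n = 3 each), and *Trem2* was not called, with 0.17 (SE 0.10) on the log2 scale. It lay between 0.12 and 0.26 with each library left out. *Trem1* counts were 22.4%, 22.3% and 5.37% of the *Trem2* counts in sEH-/- cells but 1.92%, 1.01% and 2.09% in wild-type cells.

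**Figure D1:**
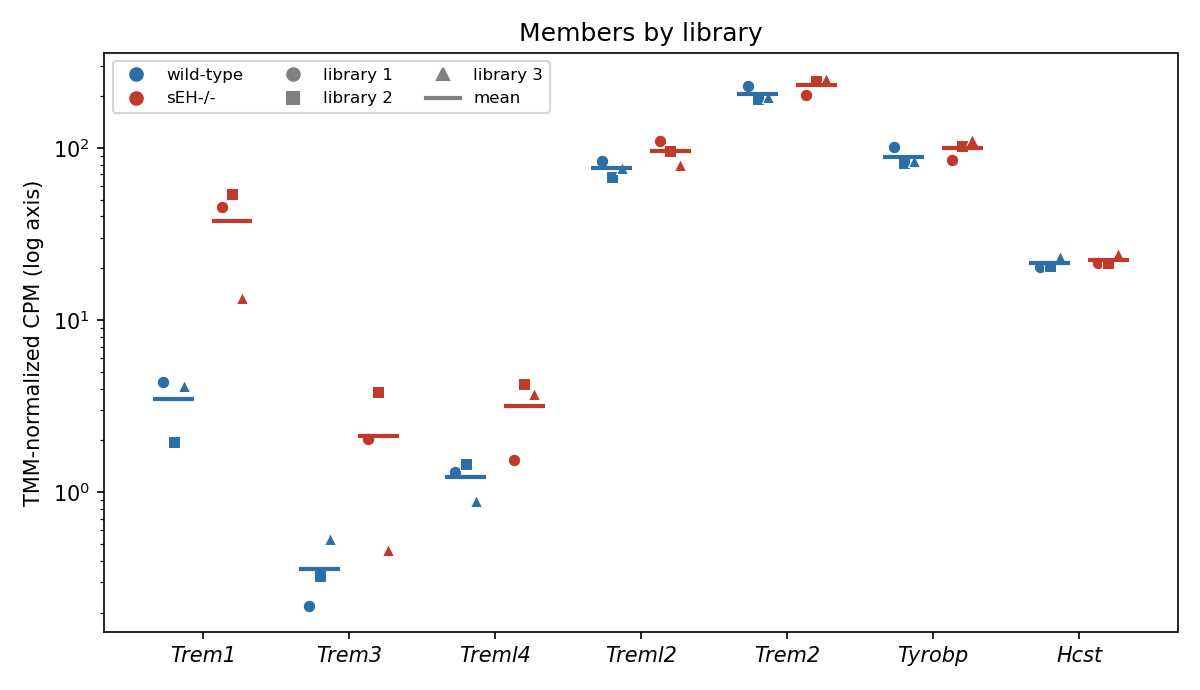
TMM-normalized CPM on a log axis for each of the 7 genes, with 1 symbol per library, circles, squares and triangles for replicates 1, 2 and 3, wild-type in blue, sEH-/- in red, and bars at the group means. The *Trem1* points of the genotypes are apart (13.4 CPM and above against 4.39 and below), those of *Trem2*, *Tyrobp* and *Hcst* overlap, and the third sEH-/- library is the lowest of its genotype in *Trem1* and *Trem3*.

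The adaptor genes differed little. *Tyrobp* (plus strand, chromosome 7, 30413760 to 30417585), which encodes DAP12, had 496, 508 and 481 counts in the sEH-/- and 460, 503 and 470 in the wild-type libraries, or 84.7, 102 and 111 CPM against 101, 81.5 and 84.1 CPM. The groups overlapped, with means of 99.5 ± 13.5 and 88.8 ± 10.6 CPM (SD, n = 3 each) and a log2 fold change of 0.16 (SE 0.11). *Hcst* (minus strand, chromosome 7, 30417712 to 30419854), which encodes DAP10, lies tail to tail with *Tyrobp*, with 126 bases between them. It had 125, 106 and 104 counts (21.3, 21.4 and 24.1 CPM) in the sEH-/- and 92, 127 and 130 counts (20.2, 20.6 and 23.3 CPM) in the wild-type libraries. These ranges overlapped too, and the log2 fold change was 0.06 (SE 0.13). *Trem2* counts were 224.5% to 238.1% of *Tyrobp* counts in all 6 libraries. Both counts followed the library total only weakly, as described below, so a steady ratio of counts need not mean a steady ratio of RNA.

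Of the 7 genes, 1 was called higher and 0 lower, against 1.51% and 1.1% of all tested genes (2.61% in either direction), and all 7 log2 fold changes were above 0, against 49.8% of all tested genes, whose median was -0.00085. The genotypes did not overlap in CPM for 2 members, *Trem1* and *Treml4*, and for 26.3% of all tested genes. Since the members were selected on this contrast, nothing is read from these counts.

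Duplicate reads had been removed before counting, and the counts of short, abundant genes followed the library total only weakly. The library totals differed 1.39-fold between the lowest and the highest, whereas the counts differed 1.16-fold for *Trem2* and 1.10-fold for *Tyrobp*, as against 1.41-fold for *Hcst*, 1.87-fold for *Treml2* and 22.4-fold for *Trem1*. Per base of the longest protein-coding transcript, *Trem2* held 1.04, *Tyrobp* 0.815, *Hcst* 0.258, *Treml2* 0.113 and *Trem1* 0.036 counts on average. The CPM of *Trem2* and *Tyrobp* was accordingly lowest in the deepest library of each genotype, and differences in these 2 genes could be underestimated, although the part of duplicate removal was not tested. With the log2 library total as a covariate, the log2 fold change was 0.11 for *Trem2* and 0.08 for *Tyrobp*, and after a correction that takes 1 count per exonic base as the ceiling it was 0.18 and 0.23. Neither gene was called in either fit, and the correction hardly touches *Trem2*, which held 0.229 counts per exonic base.

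**Figure D2:**
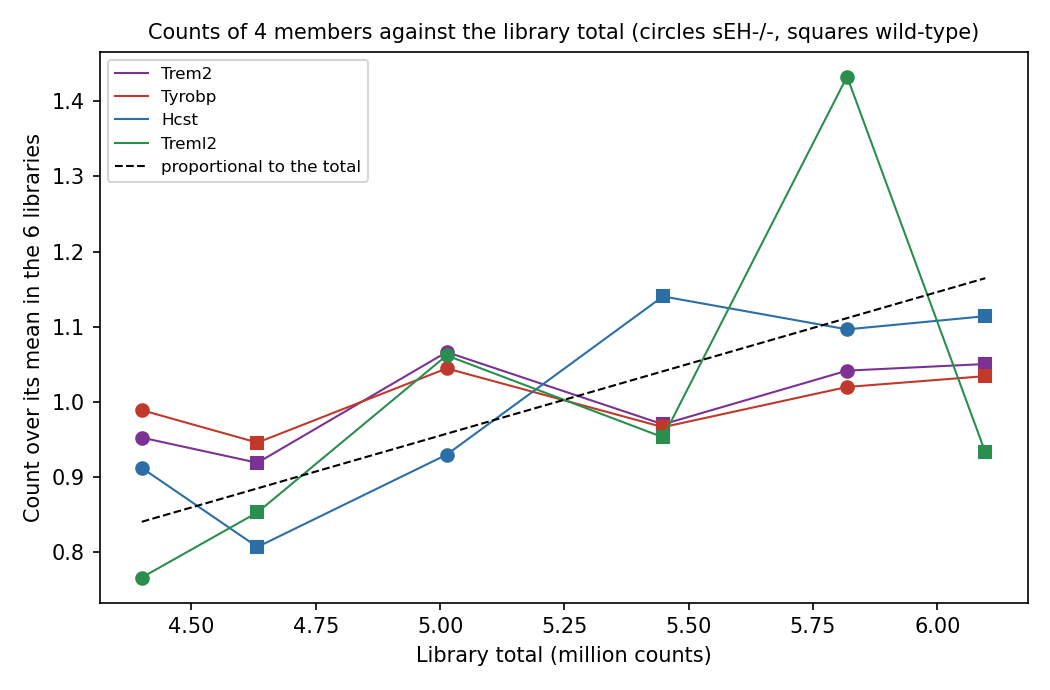
Counts of *Trem2*, *Tyrobp*, *Hcst* and *Treml2* in each library, divided by the gene's mean over the 6 libraries, against the library total, with circles for sEH-/- and squares for wild-type and a dashed line for counts proportional to the total. *Trem2* and *Tyrobp* are flatter than the dashed line, with highest to lowest ratios of 1.16 and 1.10 against 1.39 for the totals.

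Levels were compared between genes as CPM per kilobase of exon. In wild-type cells the order was *Tyrobp* (133 ± 15.8), *Trem2* (41.7 ± 3.96), *Hcst* (29.6 ± 2.32), *Treml2* (15.5 ± 1.65), *Trem1* (1.16 ± 0.45), *Treml4* (0.61 ± 0.15) and *Trem3* (0.36 ± 0.16; SD, n = 3 each). The ranges of neighbours were apart down to *Treml2* and *Trem1*, whereas those of *Trem1* and *Treml4* and of *Treml4* and *Trem3* overlapped. In sEH-/- cells *Trem1* was at 12.5 ± 7.14 CPM per kilobase (SD, n = 3), and its range of 4.48 to 18.1 reached into that of *Treml2*, 16.2 to 22.4. The level of *Trem2* depends on the length used, since its exons include those of a long transcript with a retained intron. Per kilobase of the longest coding transcript, *Trem2* came first in wild-type cells at 177 to 210 CPM and *Tyrobp* second at 136 to 169. The wild-type means of *Treml2* and *Hcst* also moved, to 19.2 and 48.3. With this length the sEH-/- ranges of *Trem1* (4.485 to 18.1) and *Treml2* (20.05 to 27.66) no longer overlapped.

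The 5 receptor genes lie within 121 kb of chromosome 17, all on the plus strand, in the order *Trem1*, *Trem3*, *Treml4*, *Treml2* and *Trem2*. Their log2 fold changes of 3.47, 2.48, 1.32, 0.33 and 0.17 decreased in the same order, although the SEs of neighbouring values were up to 0.73. Of the 13 tested genes within 500 kb of the cluster, 8 were not members and 0 of these were called. They included *Treml1*, the platelet receptor TLT-1, just beyond *Trem2*, with a value of -0.24 (SE 0.30, edgeR adjusted p = 0.68). The deposited annotation names 3 further genes here as TREM relatives. *B430306N03Rik*, with the synonym Treml6, lies between *Treml2* and *Trem2* and had 0.11 (SE 0.08, adjusted p = 0.47). This is below the 0.17 of *Trem2*, so the decrease by position holds only among the members, which were selected on this contrast. *A530064D06Rik*, with the synonym Trem4, had 0.34 (SE 0.15, adjusted p = 0.21) and *9830107B12Rik*, with the synonym Trem5, -0.04 (SE 0.58, adjusted p = 0.98), both before *Trem1* and on the minus strand (edgeR's quasi-likelihood test). Around *Tyrobp* and *Hcst*, 1 of 41 tested genes was called, against 2.61% of all tested genes, and nothing is read from this count. The called gene was *Nfkbid*, which encodes the atypical IκB protein IκBNS. It had 250, 233 and 157 counts in sEH-/- cells against 124, 162 and 146, and its log2 fold change was 0.67 (SE 0.12, edgeR adjusted p = 0.022), and leaving out the second library of either genotype or the third wild-type library ended this call, although the value was 0.60 or above in all settings.

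**Figure D3:**
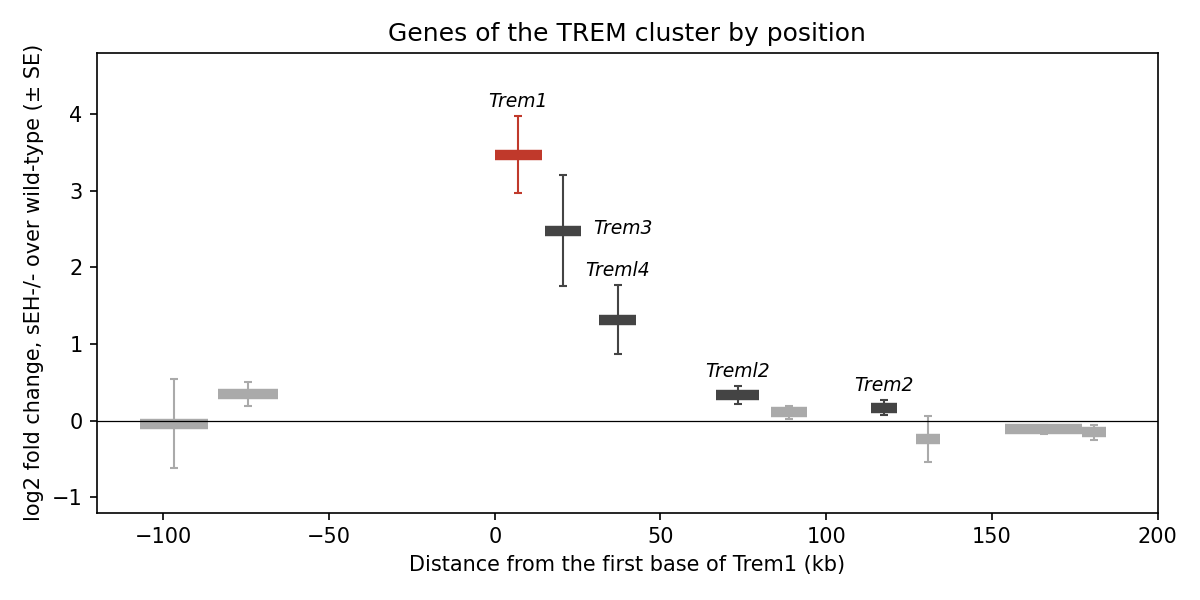
Log2 fold change (sEH-/- over wild-type, ± SE) of the tested genes of the TREM cluster against the distance from the first base of *Trem1* in kb, with bars as long as the genes, members in dark grey or, where called, red, and other genes in light grey. The values go from 3.47 for *Trem1* to 0.17 for *Trem2*, and the genes outside lie between -0.24 and 0.34.

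The lists of pathway genes that follow were written with earlier results of these libraries known. Each list or marker set below stands against 1.51% of all tested genes called higher, 1.1% called lower and 49.8% above 0. For each called gene named from here on, as for *Trem1*, leaving out wild-type replicate 3 ended the call, and so did leaving out wild-type replicate 2 for all but *Il1b*. Other receptors that use DAP12 or DAP10 were higher in sEH-/- cells in part. Of 12 tested genes, 5 were called higher and 0 lower, against 1.51% and 1.1% of all tested genes. All 12 log2 fold changes were above 0, against 49.8% of all tested genes, and the median was 0.69. *Clec5a*, a C-type lectin receptor that uses DAP12, had 524, 609 and 417 counts in sEH-/- cells against 303, 255 and 260 (log2 fold change 1.01, SE 0.17, adjusted p = 0.018, edgeR). *Klrk1*, which encodes the DAP10 and DAP12 partner NKG2D, was rare, with 17, 18 and 10 against 2, 3 and 1 counts. Its scaled ratio was 8.09 (exact 95% interval 3.44 to 23.2, for counting error only), and the fit gave 2.93 on the log2 scale (SE 0.46, edgeR adjusted p = 0.016). With 6 wild-type counts in all, *Klrk1* passed the filter on low counts through its sEH-/- libraries. Its call and interval are therefore a description and not support for a difference. All 3 sEH-/- libraries were above all wild-type libraries in both genes.

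The paired receptors of the PILR family were higher on both sides. The activating, DAP12-coupled *Pilrb1* and *Pilrb2* had log2 fold changes of 0.98 (SE 0.23, adjusted p = 0.047) and 1.07 (SE 0.20, adjusted p = 0.027), and the inhibitory *Pilra*, which recruits SHP-1, had 0.79 (SE 0.13, adjusted p = 0.017, edgeR's quasi-likelihood test). *Pilra* had 593, 710 and 475 counts in sEH-/- cells against 319, 382 and 412, without overlap. *Sirpb1b*, a DAP12-coupled signal regulatory protein, was called at 1.02 (SE 0.20, adjusted p = 0.027), and its relatives *Sirpb1a* and *Sirpb1c* were not, at 0.72 (SE 0.20) and 0.63 (SE 0.17). These families contain near-identical copies and reads with several matches were removed, so the values of *Pilrb1*, *Pilrb2* and the *Sirpb1* genes are uncertain. Of the DAP12 and DAP10 partners, 0 were called without wild-type replicate 2, 0 without wild-type replicate 3 and 2 without sEH-/- replicate 2, and *Pilrb1* lost its call in 7 of 15 other settings.

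Signalling genes below the adaptors showed smaller differences. Of 28 tested genes from Src family kinases to NFAT, 0 were called and 18 were above 0, with a median of 0.11. *Syk*, the kinase that binds the DAP12 ITAM, stood at 570 ± 39.4 CPM in sEH-/- against 580 ± 32.8 CPM in wild-type cells (SD, n = 3 each; log2 fold change -0.03, SE 0.09, adjusted p = 0.89, edgeR). *Ptk2b* and *Prkcd*, the other kinases with the highest counts, were at -0.02 (SE 0.08) and 0.01 (SE 0.10). The phospholipase *Plcg2*, which TREM2 and DAP12 activate through Syk, at 0.39 (SE 0.07, adjusted p = 0.026) passed the adjusted p of edgeR's test but not the limit on the fold change. Among 13 genes that limit ITAM signals, *Pilra* alone was called, 10 were above 0 and the median was 0.12. Over all tested genes, 2.61% were called and 49.8% were above 0. *Inpp5d*, the phosphatase SHIP1, had 0.20 (SE 0.08, adjusted p = 0.17), *Cbl*, a ubiquitin ligase, -0.03 (SE 0.10, adjusted p = 0.90), and the adaptor *Dok3* 0.38 (SE 0.09, adjusted p = 0.045, edgeR), again below the limit on the fold change.

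Ligands of TREM2 and TREM1 and the enzymes that cleave the receptors were compared next. Of 13 tested genes, 0 were called and 11 were above 0, with a median of 0.08. *Adam17*, a sheddase of TREM2, had 0.30 (SE 0.10, adjusted p = 0.10), *Adam10* 0.08 (SE 0.08, adjusted p = 0.60) and the γ-secretase subunit *Ncstn* 0.14 (SE 0.07, adjusted p = 0.29, edgeR). *Pglyrp1*, which encodes a ligand of TREM1, had 0 to 4 counts per library and was not tested. Without sEH-/- replicate 3, 1 gene of this list was called.

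The 20 genes that accompany TREM2 in lipid-associated macrophages and microglia held 0 calls, with 16 above 0 and a median of 0.09. *Ctsb* and *Gpnmb* had 0.09 (SE 0.12) and 0.05 (SE 0.11), and *Lpl*, lipoprotein lipase, 0.02 (SE 0.14). Of these genes, 13 held more than 0.5 counts per base of their longest coding transcript, as did 278 of the 13785 tested genes, so that the limit given for *Trem2* applied to most of the list.

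In contrast, cytokine and chemokine genes that TREM1 signals are known to raise were higher in part. Of 12 tested genes, 6 were called higher and 0 lower, against 1.51% and 1.1% of all tested genes. Of the 12, 11 were above 0, against 49.8% of all tested genes, and the median was 1.33. The 12 genes also respond to other inflammatory signals, and some were seen in earlier results of these libraries, so they are not independent evidence. *Il1b* had 319, 144 and 140 counts in sEH-/- cells against 51, 29 and 46 (log2 fold change 2.31, SE 0.31, adjusted p = 0.011, edgeR). The neutrophil chemoattractants *Cxcl1*, *Cxcl2* and *Cxcl3* were at 2.29 (SE 0.42), 2.36 (SE 0.32) and 1.61 (SE 0.22), and *Ccl3* and *Ccl4* at 1.28 (SE 0.21) and 1.38 (SE 0.22). Among the sEH-/- libraries, the first was the highest in *Il1b*, *Cxcl1*, *Cxcl2*, *Cxcl3* and *Ccl4*, and the second in *Ccl3* (125, 131 and 67 counts). *Trem1* was highest in the second library, with 269 counts against 264 in the first. The third library held the fewest counts of its genotype in all 6 called genes and in *Trem1*. It also had the lowest total, so the order of counts is not always the order of CPM. In *Il1b*, with 144 counts in the second and 140 in the third library, the third was not the lowest after scaling for library size. *Il6*, at 38, 6 and 4 against 1, 4 and 1 counts, was not called. Without wild-type replicate 2, 1 gene of the list was called, and without wild-type replicate 3, 0.

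**Figure D4:**
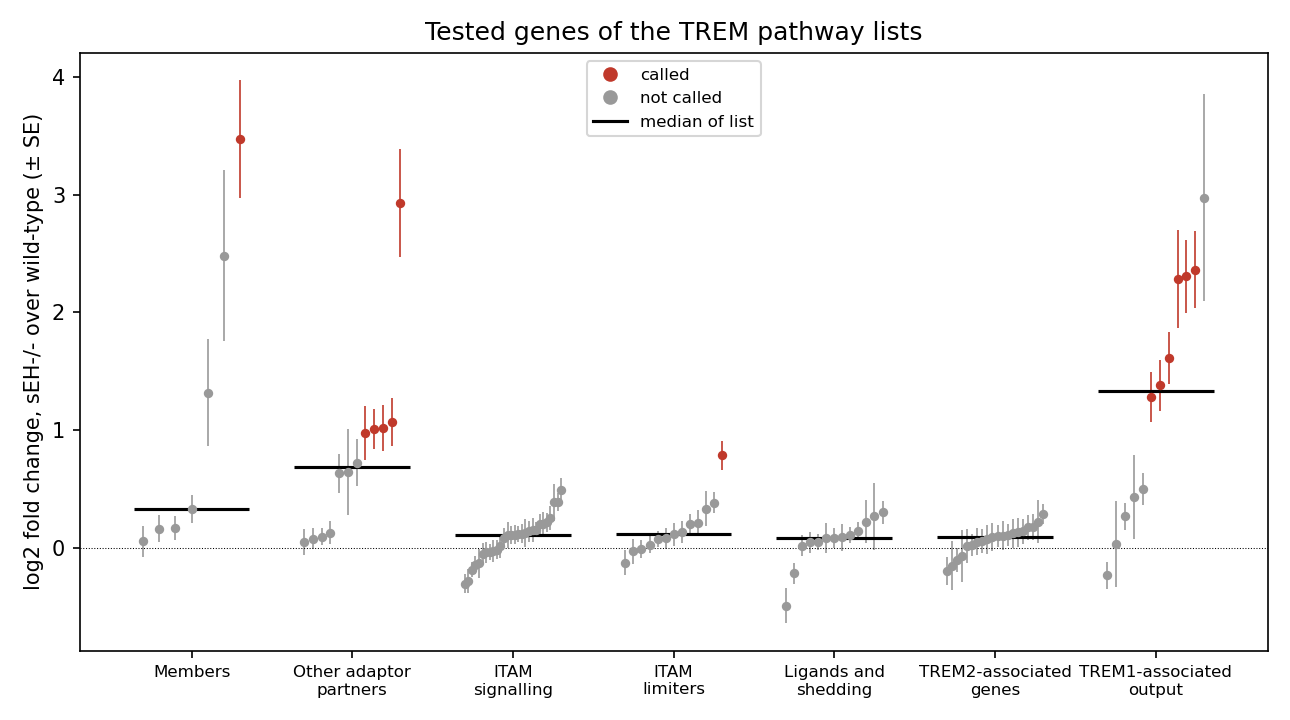
Log2 fold change (sEH-/- over wild-type) with SE of each tested gene in 7 lists, sorted within a list, with called genes in red and the median of each list as a black line. Called genes lie among the members (1), the other DAP12 and DAP10 partners (5), the genes that limit ITAM signals (1) and the cytokine genes (6), and all of them are above 0.

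Since *Trem1* and *Trem3* are also genes of neutrophils and monocytes, markers of other cells are set beside them. Of 16 neutrophil markers, 12 had a row of counts, and *Ly6g*, *Mpo*, *Ctsg* and *Retnlg* had none. The summed CPM of the 12 was 504 to 542 in sEH-/- and 348 to 406 in wild-type libraries. Most of this sum came from *Mmp8* (295 ± 37.3 against 265 ± 29.6 CPM, SD, n = 3 each), in which the genotypes overlapped. The genotype means were further apart in *Mmp9* and in *Lcn2* (77.5 ± 17.1 against 37.4 ± 5.91 CPM, SD, n = 3 each). *Lcn2* and *Mmp9* were called higher, the first at 1.05 on the log2 scale (SE 0.16, adjusted p = 0.015) and the second at 64.6 ± 33.6 against 16.3 ± 1.32 CPM (SD, n = 3 each, adjusted p = 0.016, edgeR), while *Csf3r*, the G-CSF receptor, at 0.84 (SE 0.24, adjusted p = 0.069) was not. The genes *S100a9*, *Elane*, *Camp*, *Ltf*, *Ngp* and *Cxcr2* had 0 to 10 counts in each library, none of them at 0 in all, and were not tested. In sEH-/- against wild-type libraries, *Camp* had 10, 3 and 4 against 1, 1 and 1 counts. *Ngp* had 4, 4 and 3 against 0, 3 and 1, and *Elane* 2, 3 and 1 against 0, 1 and 1. *Ltf* had 6, 1 and 0 against 0, 3 and 1, *S100a9* 3, 0 and 3 against 0, 1 and 2, and *Cxcr2* 1, 1 and 0 in both genotypes. *S100a8*, which encodes the partner of the *S100a9* product, had 140, 147 and 117 counts in sEH-/- cells against 78, 112 and 112, without overlap in CPM, and was not called at 0.54 (SE 0.14, adjusted p = 0.057, edgeR). *Prtn3*, of granulocyte precursors, was at -0.98 (SE 0.37, adjusted p = 0.14). Whether other cells contributed to the *Trem1* counts was not tested.

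The 8 macrophage markers held 0 calls and were all above 0, with a summed CPM of 1981 to 2453 in sEH-/- and 1741 to 2200 in wild-type libraries. Dendritic cell markers, at 29.7 to 61.6 against 47.6 to 64.1 CPM, held 0 calls among 4 tested, all 4 below 0 with a median of -0.57. Of the T, B and NK cell markers 1 of 10 had a row of counts, *Klrb1c* at 0 to 4 counts. The NK cell markers *Ncr1*, *Nkg7* and *Gzma* were among those without one. *Klrk1* is also a gene of NK cells, and whether such cells contributed to its counts was not tested. Of 6 osteoclast markers tested, *Dcstamp*, a cell fusion gene, and *Mmp9* were called higher, against 1.51% of all tested genes. *Dcstamp* was called in 10 of 15 other settings. *Acp5* and *Ctsk* were not called, and among 3 platelet markers 0 were called.

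The genes whose log2 CPM most resembled each member over the 6 libraries were ranked among 10277 genes that had 50 or more counts on average. For *Trem1* they were *Ms4a14* (r = 0.997), *Tent4a* (r = 0.996) and *Marcksl1* (r = 0.996), of which *Ms4a14* was called higher at 0.99 (SE 0.14). For *Trem2* they included *Mmp14* (r = 0.999) and *Zfp36l2* (r = 0.998), and for *Tyrobp* *Mmp8* (r = 0.998), *Mertk* (r = 0.997) and *Asah1* (r = 0.997). *Treml2* was nearest to *Hnrnpf* (r = 0.996), *Usp19* (r = 0.992) and *C2cd3* (r = 0.991) and *Hcst* to *Pyroxd2* (r = 0.979), *Pisd-ps2* and *Impa2* (r = 0.970 each). The points share genotype and depth, and with 6 libraries many genes reach such values.

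**Figure D5:**
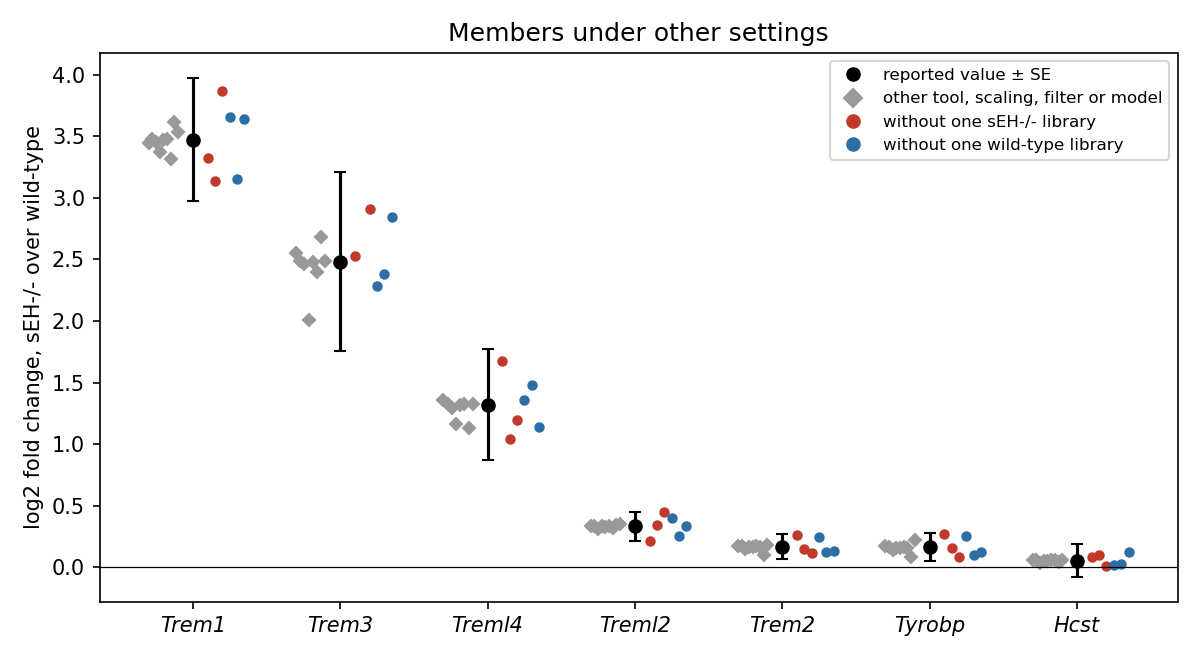
Log2 fold change (sEH-/- over wild-type) of each member as reported (black, ± SE), with another tool, scaling, filter or model (grey diamonds), and with 1 sEH-/- (red) or 1 wild-type (blue) library left out. All values are above 0, with *Trem1* between 3.14 and 3.87 and *Hcst* between 0.01 and 0.12.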

How the data were processed

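RNA was sequenced from 6 macrophage cultures and the authors deposited raw counts per gene. According to their methods, reads trimmed by Trimmomatic were mapped by STAR to mm10 (Ensembl annotation), and featureCounts summed those on the strand of an exon. Picard removed duplicates, and reads with several matches, from ribosomal or mitochondrial RNA or over several genes were left out. The submitters' processing notes list Trimmomatic 0.39, STAR 2.7.7a, Picard 2.21.7, featureCounts 1.6.5 and DESeq2 1.30.0, and the methods other versions of all but Trimmomatic. Library kits differ too, with an mRNA kit in the labels and a total RNA kit in the methods. Removing duplicates can limit the counts of short, abundant genes.

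Here, edgeR 4.0.16 under R 4.3.3 (TMM, glmQLFit, glmQLFTest, no covariates) was fitted to the counts of 13785 genes with a mean count above 5 (99.8% of counts), with Benjamini-Hochberg adjustment over all of them. Calls needed an adjusted p under 0.05 and a difference of more than 1.5-fold, as in the study. SEs were derived from the F statistic. Between libraries of a genotype the chi-square of counts per degree of freedom was 2.24 to 4.89, so none was a repeated sequencing of another. This value cannot show whether libraries came from separate mice or cultures. The fit was tested on simulated data. All 7 members had a mean above 5 counts, and *Trem3*, at 6.5, passed through its sEH-/- libraries.

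Members and lists were chosen with earlier results of these data known. Genes named are the members, called genes of each list (or up to 3 with the highest counts), the 3 genes most like each member, called neighbours within 500 kb and the top markers, of which some are not reported here. Other pathway, neighbour and marker genes named were chosen after their values were seen. Coordinates were the same in GENCODE M21, which gave exonic lengths. Promoter sequences are from RefSeq (GRCm38.p6), which held 4 of the 7 members. Alternatives were DESeq2 1.42.0, limma 3.58.1 (voom), RLE factors, library size alone, other filters, a replicate block, library total as a covariate, each library left out and no limit on the fold change. Figures were drawn with matplotlib 3.10.9.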

Additional observations from a re-analysis of the deposited data

How the results depend on the processing

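All 7 members kept a log2 fold change above 0 in every setting that gave a value. With each library left out in turn, the log2 fold change was 3.14 to 3.87 for *Trem1*, 2.28 to 2.91 for *Trem3*, 1.04 to 1.68 for *Treml4*, 0.22 to 0.45 for *Treml2*, 0.12 to 0.26 for *Trem2*, 0.09 to 0.27 for *Tyrobp* and 0.01 to 0.12 for *Hcst*. *Trem1* was not called without wild-type replicate 2 or 3, *Trem3* was called without sEH-/- replicate 3 and *Treml4* without sEH-/- replicate 1. The same settings gave 0 to 2 called members, 0 to 7 called partners of the adaptors, 0 to 1 ITAM signalling genes, 0 to 1 limiting genes, 0 to 1 ligand and shedding genes and 0 to 8 cytokine genes, with 6 to 625 calls over all genes. *Trem3* gave no value without sEH-/- replicate 2 or with filterByExpr, nor *Treml4* with filterByExpr, since the gene then failed the filter. With no limit on the fold change, 2 ITAM signalling and 2 limiting genes were called, and with counts corrected for a ceiling, 1 signalling gene. Per kilobase of the longest coding transcript, the wild-type level was 189.5 CPM for *Trem2*, 19.2 for *Treml2* and 48.3 for *Hcst*. The ceiling correction and this length were chosen after seeing the data. Same-numbered libraries of the genotypes did not deviate together (r = -0.22, -0.458 and -0.0629, and 0 of 6 libraries correlated best with their own number). No pairing by number was thus seen, but deviations from means of 3 libraries cannot show whether same-numbered cultures shared a batch. With the replicate block 234 genes were called in place of 360, and with the library total as a covariate 171. *Trem1* was at 3.32 and called with the block. Low counts limit *Trem3*, *Treml4* and *Klrk1*, and counts that hardly follow the library total limit *Trem2* and *Tyrobp*. The causes of these changes were not tested.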
